A study of Mus musculus with 2 samples.

Results

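The genes described here are 10 genes of neutrophil granules and neutrophil maturation: Ngp, Camp, Ltf, Lcn2, Mmp8, Mmp9, Retnlg, Wfdc21, Asprv1 and G0s2. They are given by name, with no threshold on their values, and are 10 of the 24785 genes listed in the tables of the series. All 10 were read in both libraries. The data are single-cell RNA-seq of viable leukocytes, sorted by CD45, from the lungs of wild-type C57BL/6N mice. The BLM library held cells of lungs injured with bleomycin (BLM), a drug that leads to inflammation and fibrosis, taken at day 15. The naïve library held cells of lungs without treatment. Each library was 1 pool of 3 mice with no map from cell to mouse used here, so there was no replicate and no test, and library and treatment cannot be told apart.

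Neutrophils fill their granules one kind at a time while they mature in the bone marrow. Azurophil granule proteins come first, specific granule proteins such as Ngp, Camp and Ltf follow in the myelocyte and metamyelocyte stages, and gelatinase granule proteins such as Mmp9 come later. The transcripts of the earlier granules are largely gone by the time a neutrophil enters the blood, while the proteins remain stored.

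The genes were measured within neutrophil-gated cells, defined as cells in which S100a8 and S100a9, the abundant calcium-binding proteins of neutrophils, together made up 0.5% or more of the unique molecular identifiers (UMIs, 1 per captured transcript). The gate took 906 of 4393 kept BLM cells (20.6%, 95% interval 19.4 to 21.9%) and 422 of 3820 kept naïve cells (11.0%, 10.1 to 12.1%). Between 0.4 and 0.5% lay 19 BLM and 9 naïve cells, and between 0.5 and 0.6% lay 16 and 11. The gate was checked against 8 neutrophil markers it did not use (Csf3r, Cxcr2, Ly6g, Il1r2, Trem1, Clec4d, Hdc and Mxd1). All gated cells carried 2 or more of them, and 900 of 906 BLM and 422 of 422 naïve cells carried 4 or more. The markers were not limited to gated cells, since 391 of 3487 BLM and 238 of 3398 naïve kept cells outside the gate also carried 4 or more. Ly6g, a surface marker used to sort mouse neutrophils, was the exception, with a UMI in 3.20% of BLM and 10.2% of naïve gated cells. Only 10 BLM (1.10%) and 16 naïve (3.79%) gated cells carried 2 or more markers of another class. Gated cells were shallow, with medians of 1339 (BLM) and 1594 (naïve) UMIs per cell and 1245707 and 687547 UMIs in all. The tables shared 22 cell numbers, and none of these was gated in both.

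A level is the summed UMIs of a gene in a kind of cell, scaled to 1000000 UMIs of the same cells (CPM). Levels are not scaled by transcript length, so each gene is compared with itself across cells and not with other genes. All intervals are 95% intervals for counting error alone, and the spread between mice or libraries is not in them. Intervals of levels and of their ratios also leave out the spread from cell to cell. They are too narrow for genes held unevenly by the cells, such as Ngp and Retnlg.

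In GENCODE vM21 (GRCm38, GRCm38 being also the build of the files) all 10 genes are protein-coding. Camp (chr9:109847379-109849617, minus strand), Ngp (chr9:110419747-110423012, plus) and Ltf (chr9:111019271-111042767, plus) are close together, with 570129 bases between Camp and Ngp and 596258 bases between Ngp and Ltf. Mmp8 (chr9:7558456-7568485, plus) lies on the same chromosome at a distance. Lcn2 (chr2:32384633-32388252, minus) and Mmp9 (chr2:164940780-164955850, plus) are on chromosome 2. Retnlg is at chr16:48872621-48874496 (plus), Wfdc21 at chr11:83746940-83752642 (plus), Asprv1 at chr6:86628164-86629710 (plus) and G0s2 at chr1:193272161-193273217 (minus).

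C/EBP factors drive granule genes during granulocyte maturation, and the core motif TTGCNNAA (both strands searched) was looked for in the 250 bases before the RefSeq start of each gene. RefSeq start windows (GRCm38.p6) matched 8 of the 10 genes by symbol. The motif was found in 5 of these 8 windows, against 9.56% of all 32851 windows of the same length. Windows of Ngp, Ltf, Lcn2, Mmp8 and Retnlg held it, and those letters did not occur in the windows of Camp, Asprv1 and G0s2. A match is a description of letters, not evidence of a bound site. Shown are the upstream stretches of 4 genes. Ngp, Ltf and Camp passed 2-fold between libraries, mostly through 3 cells (Ngp) or 1 cell (Ltf and Camp). Ngp and Ltf are shown, and Camp, whose window held no match, is not. Mmp8 and Retnlg were taken because they went together from cell to cell but apart between libraries. Each stretch is given 5′ to 3′ on the plus strand, with the motif in capitals, ending before the first base of the gene in either annotation. They cover chr9:110419558-110419746 (Ngp), chr9:111019042-111019270 (Ltf), chr9:7558179-7558428 (Mmp8) and chr16:48872358-48872607 (Retnlg).
Ngp: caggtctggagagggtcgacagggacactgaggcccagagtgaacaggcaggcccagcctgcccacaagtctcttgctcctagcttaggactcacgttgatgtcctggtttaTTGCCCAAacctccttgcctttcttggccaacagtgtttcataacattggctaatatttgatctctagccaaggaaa
Ltf: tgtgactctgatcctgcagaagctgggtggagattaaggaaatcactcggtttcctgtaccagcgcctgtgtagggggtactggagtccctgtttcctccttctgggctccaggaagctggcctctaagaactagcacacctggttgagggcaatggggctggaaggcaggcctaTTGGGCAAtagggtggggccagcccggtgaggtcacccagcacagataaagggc
Mmp8: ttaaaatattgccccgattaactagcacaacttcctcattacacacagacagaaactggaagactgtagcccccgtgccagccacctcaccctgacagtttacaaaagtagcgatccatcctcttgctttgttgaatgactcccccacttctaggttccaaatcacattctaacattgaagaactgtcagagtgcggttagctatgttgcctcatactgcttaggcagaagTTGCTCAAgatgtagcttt
Retnlg: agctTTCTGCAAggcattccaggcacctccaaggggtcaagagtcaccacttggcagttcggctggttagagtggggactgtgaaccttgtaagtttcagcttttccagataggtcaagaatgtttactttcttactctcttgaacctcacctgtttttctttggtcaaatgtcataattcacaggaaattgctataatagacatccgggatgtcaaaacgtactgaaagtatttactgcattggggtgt
Counted from the RefSeq start, with −1 the base before it, the matches began at −138 (Ngp), −75 (Ltf), −19 (Mmp8) and −246 (Retnlg). The Ngp and Mmp8 matches read on the plus strand, and the Ltf and Retnlg matches on the minus strand. Ngp had a further match at −11, inside the part left out above.

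Most UMIs of each gene but Wfdc21 lay inside the gate, for Mmp8 only by a small margin. Within the BLM library 9 of the 10 genes were 2-fold or more higher in gated cells than in all other kept cells, against 11.2% of 12409 genes, and within the naïve library all 10 were, against 13.8% of 12169 genes. Lcn2 reached 674 CPM in gated and 5.66 CPM in other BLM cells, a log2 ratio of 6.90 [6.61, 7.19], and 685 against 3.68 CPM in naïve cells. Between 86.0% (Mmp9) and 91.0% (Retnlg) of the BLM UMIs of Lcn2, Mmp9, Retnlg, Asprv1 and G0s2 lay inside the gate. Of their naïve UMIs, between 71.6% (G0s2) and 90.4% (Retnlg) lay inside the gate. Mmp8 had 52.8% of its BLM and 54.1% of its naïve UMIs there. Wfdc21 had 8.11% and 8.58%.

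**Figure D1:**
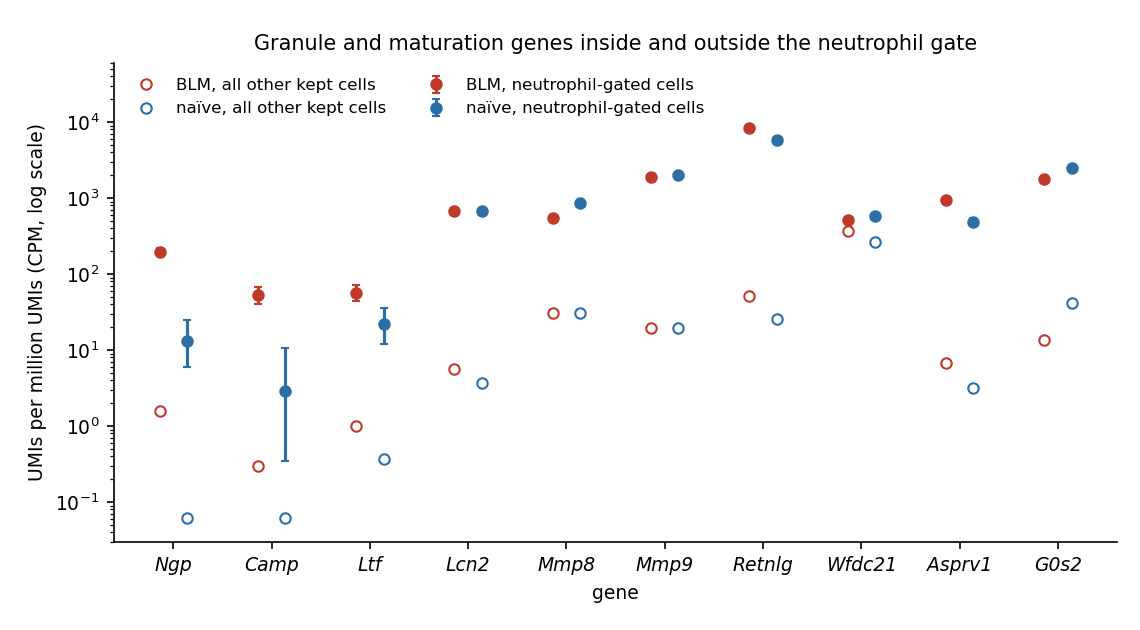
Level of each gene in CPM (log axis) in neutrophil-gated cells (filled, bars are 95% Poisson intervals) and in all other kept cells (open) of the BLM (red) and naïve (blue) libraries. The filled points stand far above the open ones for every gene but Wfdc21, where they are 516 against 365 CPM in BLM and 586 against 264 CPM in naïve cells.

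The comparison of injured with naïve lung asks whether the granule programme of lung neutrophils differs after BLM. Of the 10 genes, Ngp, Camp and Ltf were 2-fold or more higher in BLM gated cells and none was 2-fold or more lower. Among all 5419 genes with 20 or more UMIs, 3.51% were that much higher and 7.27% that much lower. The median log2 ratio was 0.25 over the 10 genes and −0.13 over all genes tested. Without a single BLM cell Camp and Ltf were no longer 2-fold or more higher, and without 3 BLM cells Ngp was not either, as described next. Ngp stayed at 1.60 when its 5 highest cells were left out of each library. That setting also takes naïve cells, which held only 9 Ngp UMIs. Of the other 7, Retnlg and Asprv1 were higher in BLM, Mmp8 and G0s2 were lower, and Lcn2, Mmp9 and Wfdc21 stayed within 0.20 of 0 on the log2 scale.

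Ngp encodes neutrophilic granule protein, a cystatin-related protein of the specific granules. It had 243 UMIs in 906 BLM gated cells (195 CPM, 171 to 221) and 9 UMIs in 422 naïve gated cells (13.1 CPM, 5.99 to 24.8), a log2 ratio of 3.90 [2.95, 5.04]. The BLM library was far higher in its sum, yet the share of gated cells with a Ngp UMI was 2.65% in BLM and 2.13% in naïve cells. Camp encodes the cathelicidin antimicrobial peptide. It had 66 UMIs in BLM (53.0 CPM) and 2 UMIs in naïve cells (2.91 CPM), a log2 ratio of 4.19 [2.28, 7.26]. Those UMIs sat in 2 cells of each library. Ltf encodes lactoferrin, the iron-binding protein of specific granules. It had 70 UMIs in BLM (56.2 CPM) and 15 in naïve cells (21.8 CPM), a log2 ratio of 1.36 [0.55, 2.28], in 2.65% and 2.84% of gated cells. No B cell (585 BLM and 789 naïve cells, median 1732 and 1989 UMIs) held a UMI of Ngp, Camp or Ltf, so that shares of cells with a UMI of up to 0.513% and 0.380% remain possible. This limits detection in shallow cells, not expression.

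Summed, the 3 specific granule genes had 379 UMIs in BLM gated cells (304 CPM) and 26 in naïve gated cells (37.8 CPM), a log2 ratio of 3.01 [2.43, 3.64]. A single BLM cell held 294 of the 379 UMIs (77.6%), namely 187 of Ngp, 65 of Camp and 42 of Ltf. The next gated BLM cells held 17 and 14, and every other gated cell of either library held at most 3. The share of gated cells with at least 1 UMI of the 3 genes was 5.08% in BLM (46 of 906, 3.74 to 6.71%) and 5.45% in naïve cells (23 of 422, 3.49 to 8.07%). After thinning each cell to 1000 UMIs these shares were 4.21% and 3.60%, with 114 BLM and 11 naïve cells too shallow to enter. Cells of 10 or more UMIs were 3 of 906 in BLM (0.331%, 0.0683 to 0.965%) and 0 of 422 in naïve cells (0 to 0.870%). These intervals cover the counting of cells within each library, and no comparison of the groups was drawn from them.

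**Figure D2:**
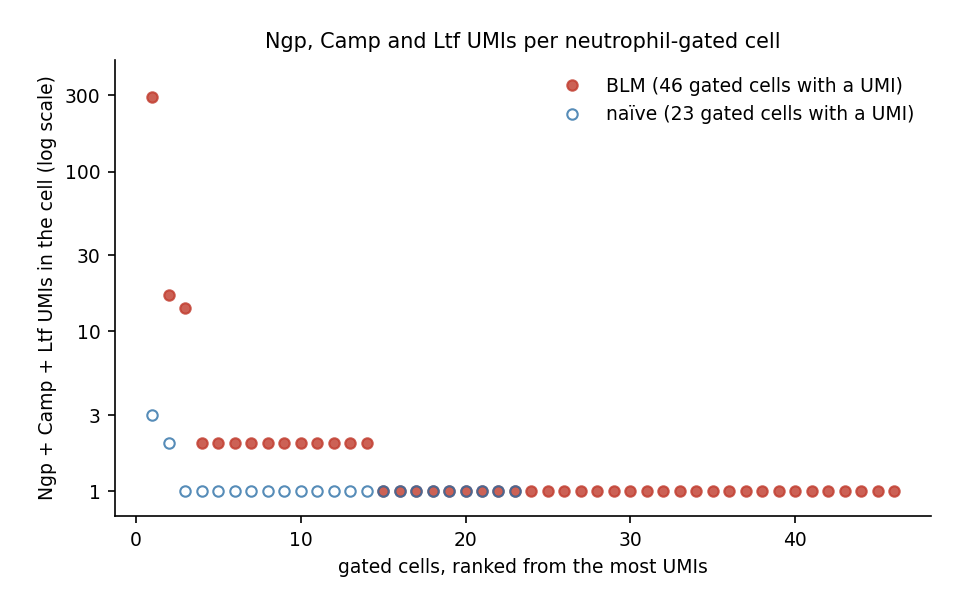
UMIs of Ngp, Camp and Ltf together in each neutrophil-gated cell that held any (log axis), ranked from the highest, for the BLM (filled red) and naïve (open blue) libraries. In BLM 1 cell stands at 294, 2 cells at 17 and 14 and the remaining 43 at 1 or 2, while all 23 naïve cells lie between 1 and 3.

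Without that 1 cell the summed log2 ratio was 0.86 [0.21, 1.55] (85 against 26 UMIs). Ngp was at 45.1 CPM in BLM (56 UMIs) and 1.78 [0.76, 2.98] above the naïve cells, Ltf was at 22.5 CPM against 21.8 CPM (0.05 [−0.91, 1.06]), and Camp had 1 BLM UMI against 2 naïve UMIs (−1.85 [−7.74, 2.41]). Without all 3 cells of 10 or more UMIs the summed ratio was 0.21 [−0.49, 0.94], Ngp was at 0.68 [−0.45, 1.96] and Camp had no BLM UMI left. Of the summed BLM UMIs of Ngp, Camp and Ltf 85.8% thus lay in 3 cells. These were picked after seeing the data for their high values, so leaving them out had to lower the ratio. The intervals left for the other 903 BLM gated cells include 0 but are wide, reaching 1.96 for Ngp. Whether those cells differ from the naïve cells was not tested. Those 3 cells come from a pool of 3 mice, and which mouse or mice they came from was not known here.

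The highest cell had 3016 UMIs and 1002 genes, and S100a8 and S100a9 made up 11.2% of its UMIs, against a median of 2.62% over BLM gated cells. It carried 6 of the 8 neutrophil markers. Ngp made up 62003 and Camp 21552 per 1000000 of its UMIs. Lcn2, the siderophore-binding lipocalin of specific granules, had 46 UMIs in it, 23.9-fold its level in the other gated BLM cells. Mmp8 had 14 UMIs (8.55-fold), Retnlg 102 (4.09-fold) and Mmp9 5 (0.867-fold). Asprv1 and G0s2 had none. From the lists of other granule genes the cell held 15 UMIs of Chil3 (a chitinase-like protein), 7 of Cd177 (a neutrophil surface protein), 29 of Anxa1 (annexin A1) and 5 of the 6 gated BLM UMIs of Orm1 (an acute-phase glycoprotein), genes named after their values were seen. The remaining specific granule genes of the list were mixed. Cybb (13 UMIs, 22.4-fold) and Lyz2 (46 UMIs, 5.49-fold) were high in it, and Cyba and Itgam were at 2.50-fold and 2.24-fold. Pglyrp1 and Itgb2 were at 1.63-fold and 0.833-fold, and Hp (haptoglobin, 1246 CPM in the other gated BLM cells) and Olfm4 had 0 UMIs. It held no UMI of the azurophil granule genes Mpo, Prtn3, Ctsg, Ms4a3 and Prss57. The cells with 17 and 14 UMIs had 16 and 14 of Ngp, 1 and 0 of Camp and none of Ltf, together with 249 and 164 UMIs of Retnlg, the highest Retnlg counts of any gated BLM cell. Outside the gate 1 kept BLM cell with C1q macrophage markers and 10074 UMIs held 18 Ngp, 2 Camp and 3 Ltf UMIs.

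**Figure D3:**
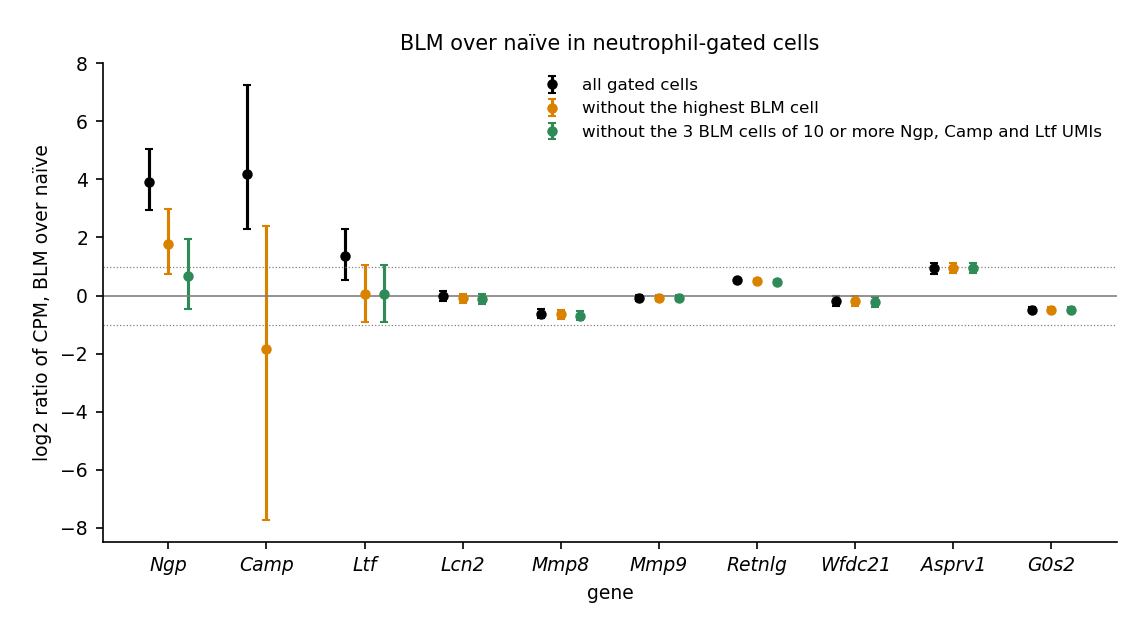
Log2 ratio of CPM, BLM over naïve, for each gene in neutrophil-gated cells (95% intervals for counting error, dotted lines at 2-fold) with all gated cells (black), without the highest BLM cell (orange) and without the 3 BLM cells of 10 or more Ngp, Camp and Ltf UMIs (green, no point for Camp, which had no BLM UMI left). Ngp, Camp and Ltf move with those cells, and the other 7 genes keep their direction.

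Lcn2 was spread over many cells, at similar levels in both libraries. It was at 674 CPM in BLM and 685 CPM in naïve gated cells (−0.02 [−0.19, 0.14], and 0.19 when scaled by the median ratio of all genes), with a UMI in 39.8% and 44.8% of them (22.3% and 23.0% after thinning to 500 UMIs). In B cells the share with a Lcn2 UMI was 0.513% and 0.887%. The 91 BLM gated cells with most Lcn2 held 53.5% of its UMIs, and the 43 naïve cells with most held 50.1%.

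Mmp8, the neutrophil collagenase, was lower in BLM. It was at 553 CPM (513 to 596) in BLM and 854 CPM (786 to 926) in naïve gated cells, a log2 ratio of −0.63 [−0.79, −0.46]. The share of gated cells with a Mmp8 UMI was 38.0% in BLM and 54.3% in naïve cells, and 32.6% and 44.9% after thinning to 1000 UMIs. In B cells it was 1.03% and 0.887%. Mmp9, the gelatinase of the later granules, was at 1911 CPM in BLM and 2023 CPM in naïve cells (−0.08 [−0.18, 0.01]). Its shares of cells were 83.1% and 90.8%, and 77.6% and 82.6% after thinning.

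Retnlg, a resistin-like secreted protein of mouse neutrophils, was higher in BLM. It was at 8328 CPM (8168 to 8490) in BLM and 5776 CPM (5597 to 5958) in naïve gated cells, a log2 ratio of 0.53 [0.48, 0.58] or 1.44-fold. It was uneven from cell to cell. In BLM the median gated cell had 6 UMIs and the highest 249, and 168 of 906 cells had none, while the naïve median was 5, the highest 125, and 63 of 422 cells had none. The share of cells with a UMI was 81.5% in BLM and 85.1% in naïve cells and went against the CPM, while after thinning to 500 UMIs it was 71.2% and 69.1%. No order was read from the shares. As background, 7.18% of BLM and 4.69% of naïve B cells held a Retnlg UMI (32.5 and 19.4 CPM). Wfdc21, a small secreted protein with a whey acidic protein domain, was at 516 CPM in BLM and 586 CPM in naïve gated cells (−0.18 [−0.37, −0.00014]), and the direction turned to 0.03 when the libraries were scaled by the median ratio of all genes.

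Asprv1 encodes an aspartic protease known from the skin. It was higher in BLM, at 930 CPM (878 to 986) against 487 CPM (436 to 542), a log2 ratio of 0.93 [0.76, 1.11] or 1.91-fold. More BLM cells held it, 42.4% (39.1 to 45.7%) against 31.3% (26.9 to 35.9%) of naïve cells, and 38.4% against 25.0% after thinning to 1000 UMIs. B cells held it in 0.855% and 0.380%. Cells of 6 or more UMIs numbered 51 of 906 in BLM (5.63%) and 12 of 422 in naïve cells (2.84%). Among all genes tested Asprv1 stood at percentile 96.0 of the log2 ratios, and without the 3 cells described above it was at 0.94. G0s2, an inhibitor of adipose triglyceride lipase, was lower in BLM, at 1783 CPM (1710 to 1859) against 2506 CPM (2389 to 2627), a log2 ratio of −0.49 [−0.58, −0.40]. Its shares of cells were 72.8% and 84.6%, and 67.1% and 77.3% after thinning. Scaling by the median ratio of all genes moved the median of all genes from −0.13 to 0.09. With that shift Asprv1 was at 1.15, Retnlg at 0.74, Mmp8 at −0.41 and G0s2 at −0.28, the same directions.

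Among cells outside the gate, classes were set by 2 or more of 4 markers each, and values of the libraries are given side by side. Wfdc21 was abundant in cells with alveolar macrophage markers, at 1185 CPM in 211 BLM cells and 573 CPM in 657 naïve cells. It was at 255 CPM in BLM cells with C1q macrophage markers (42.5 CPM in naïve), and at 153 CPM in BLM classical monocytes (23.5 CPM in naïve), against 22.4 and 37.3 CPM in B cells. In the classical monocytes the share of cells with a Wfdc21 UMI was 10.7% in BLM and 10.6% in naïve cells, with up to 20 UMIs in a BLM cell and 1 in a naïve cell. Mmp8 was at 136 CPM in BLM and 119 CPM in naïve classical monocytes and at 39.3 and 46.7 CPM in cells with alveolar macrophage markers, above 4.33 and 3.31 CPM in B cells. In cells with C1q macrophage markers Mmp8 was at 31.9 CPM in BLM (231 UMIs, up to 38 in a cell) and 6.71 CPM in naïve cells (3 UMIs). Mmp9 was at 235 CPM in the 82 naïve cells with C1q macrophage markers, which held 105 of its UMIs in 23.2% of the cells (up to 17 in a cell), and at 10.1 CPM in the 633 BLM cells of that class. G0s2 was at 161 CPM in naïve and 51.4 CPM in BLM nonclassical monocytes, and at 43.0 CPM in naïve and 7.40 CPM in BLM cells with alveolar macrophage markers, against 9.92 and 2.16 CPM in B cells. Lcn2 and Asprv1 stayed at or below 12.1 CPM in each of the 8 leukocyte classes of 50 or more cells. In the 708 BLM and 488 naïve cells that fell in no class, Lcn2 was at 15.2 and 5.87 CPM and Asprv1 at 16.7 and 14.2 CPM. Wfdc21 was at 522 and 121 CPM and Mmp9 at 66.1 and 54.3 CPM in those cells.

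**Figure D4:**
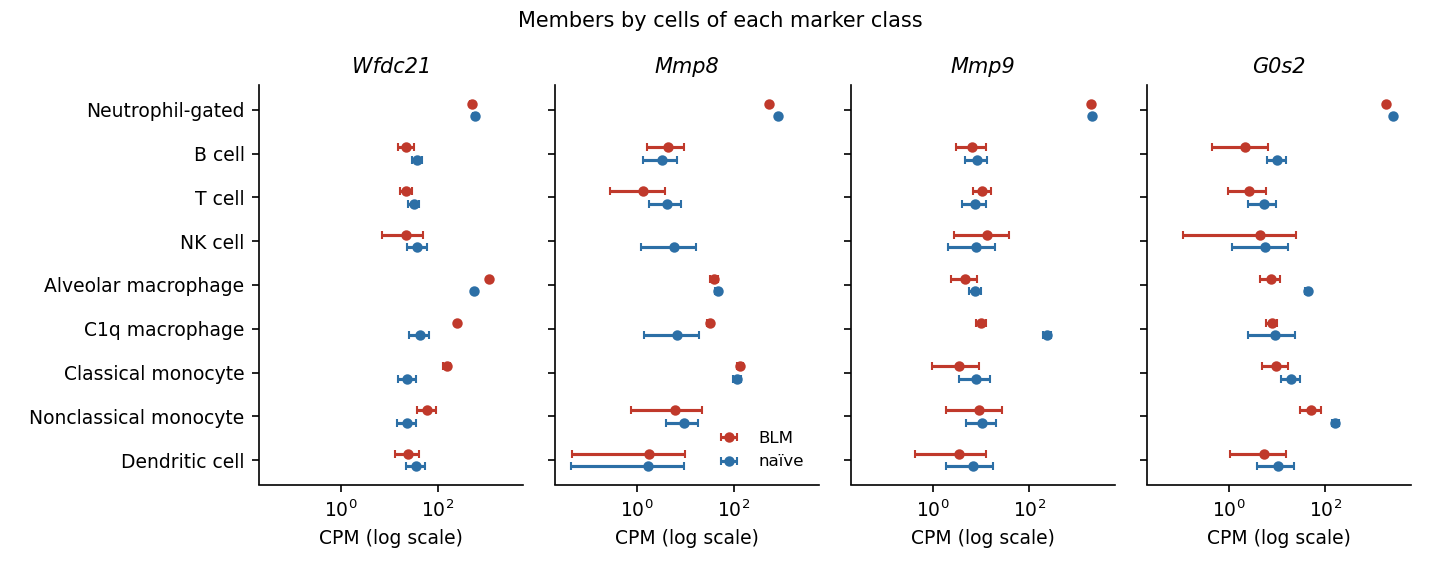
CPM (log axis, 95% Poisson intervals) of Wfdc21, Mmp8, Mmp9 and G0s2 in neutrophil-gated cells and in 8 marker-defined classes outside the gate, for BLM (red) and naïve (blue) libraries, with no point where a class had no UMI. Wfdc21 in cells with alveolar macrophage markers reaches 1185 CPM in BLM, above its 516 CPM in gated cells, and Mmp8 in classical monocytes stands apart from the lymphocytes.

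Over gated cells of 500 or more UMIs (898 BLM and 422 naïve), Retnlg went with Mmp8 and with Wfdc21 in both libraries. Pearson r of log2(CPM of the cell + 100) was 0.31 in BLM and 0.30 in naïve cells for Retnlg and Mmp8, and 0.22 and 0.28 for Retnlg and Wfdc21. Lcn2 and Wfdc21 had 0.17 and 0.19, and Mmp9 and Retnlg 0.20 and 0.17. Asprv1 stayed under 0.08 with each of the other 9 genes in both libraries. These are descriptions across cells that share a library and differ in depth. The genes most like the sum of Retnlg, Mmp8, Mmp9 and Wfdc21 among 1901 candidates were S100a9 (0.40 in BLM and 0.39 in naïve cells), the chemokine gene Ccl6 (0.40 and 0.34), S100a8 (0.32 and 0.43), Gda (0.25 and 0.22), S100a6 (0.25 and 0.22), Rdh12 (0.23 and 0.20), S100a11 (0.19 and 0.20) and Stx11 (0.18 and 0.26). S100a8 and S100a9 also set the gate. For the sum of Ngp, Camp and Ltf the 8 leading genes had r of at most 0.09 in BLM and 0.12 in naïve cells, too weak to describe.

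Gated cells of each library were then ranked by their Retnlg share and cut into 4 bins of 226 or 227 BLM and 105 or 106 naïve cells. Median depth went from 1275 to 1402 UMIs in BLM and from 1542 to 1708 in naïve cells between the lowest and the highest bin. Mmp8 went from 225 CPM in the lowest to 1000 CPM in the highest bin in BLM, and from 452 to 1223 CPM in naïve cells. It was lower in BLM in each of the 4 bins, with overlapping intervals in the highest. Wfdc21 went from 318 to 796 CPM and from 300 to 875 CPM, and Lcn2 from 434 to 982 CPM and from 499 to 985 CPM. Asprv1 was higher in BLM in each bin. It went from 762 CPM in the lowest to 1075 CPM in the highest bin in BLM, while naïve bins lay between 300 and 609 CPM. G0s2 was lower in BLM in each bin. It went from 1331 CPM in the lowest to 2050 CPM in the highest bin in BLM, while naïve bins lay between 2293 and 2669 CPM. The order of the libraries for Mmp8, Asprv1 and G0s2 was thus the same in the lowest and the highest bin. Bins were cut within each library and were not matched on Retnlg. In the highest bin Retnlg was at 22719.5 CPM in BLM and 15162.5 CPM in naïve cells. G0s2 was close there, at 2050 CPM in BLM and 2441 CPM in naïve cells. Icam1, an adhesion molecule of activated neutrophils with r of −0.21 in BLM and −0.25 in naïve cells to the sum of Retnlg, Mmp8, Mmp9 and Wfdc21, went the other way, from 665 to 192 CPM in BLM and from 441 to 99.6 CPM in naïve cells. It was named after its values were seen.

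**Figure D5:**
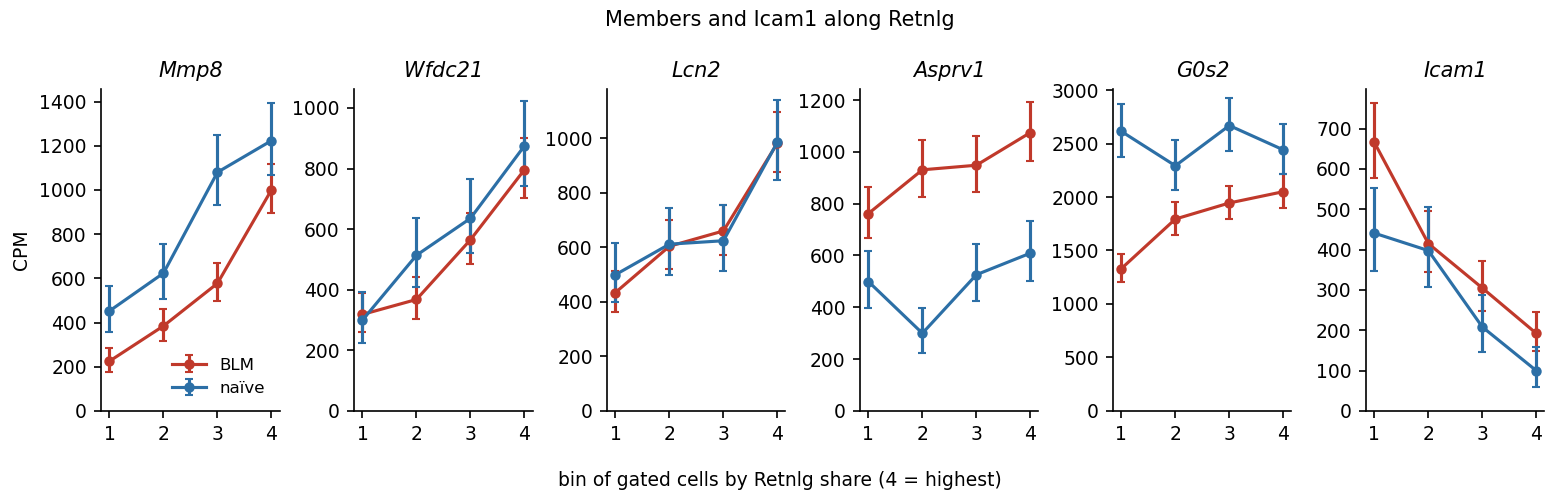
CPM (95% Poisson intervals) of 5 members and of Icam1 in gated cells by bin of Retnlg share (1 lowest, 4 highest), for BLM (red) and naïve (blue) cells, each panel with its own axis from 0. Mmp8, Wfdc21 and Lcn2 climb with Retnlg in both libraries, and Icam1 declines. Asprv1 and G0s2 climb from bin to bin in BLM only. Asprv1 (BLM above naïve) and G0s2 (BLM below naïve) keep their order in each bin.

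Other genes of granules and maturation were described by lists that did not hold the 10 genes. Of the azurophil granule genes none reached 20 UMIs. Mpo (myeloperoxidase), Ctsg (cathepsin G) and Ms4a3 had no UMI in gated cells of either library, Prtn3 (proteinase 3) had 3 in BLM and none in naïve cells, Prss57 had 10 and 7, and Elane was not analysed here. Of 12 other specific granule genes 11 were tested and none was 2-fold apart (median −0.23). The highest were Olfm4 at 0.84 [−0.34, 2.20], Cd177 at 0.35 [−0.15, 0.87] and Anxa1 at 0.03, and the lowest were Lyz2 (lysozyme) at −0.60 [−0.67, −0.52], Chil3 at −0.50 and Cyba (a subunit of the NADPH oxidase) at −0.39. Orm1 had 6 BLM UMIs and no naïve UMI. A list drawn up for gelatinase granules and secretory vesicles held 8 genes, and being listed does not show that a protein is stored there. Of these genes 7 were tested and none was 2-fold apart (median 0.04). Among them Mmp25 (a membrane metalloprotease) was at 0.66, Cd14 at 0.52 and Fpr1 (a formyl peptide receptor) at 0.46, against Padi4 at −0.61, Adam8 at −0.01 and Fpr2 at 0.02. Mme had no UMI.

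Of the protease inhibitors 4 of 9 were tested and 3 were 2-fold or more higher in BLM. They were the stefins, cytosolic inhibitors of cathepsins. Stfa2l1 was at 474 CPM in BLM and 228 CPM in naïve cells (1.05 [0.80, 1.32]), Stfa1 at 40.9 and 7.27 CPM (2.49 [1.18, 4.18]), and Stfa2 at 46 UMIs against 1 UMI (4.67 [2.12, 10]). These genes are near-identical copies, so reads may be split between them and their separate values are uncertain. Timp2, a metalloprotease inhibitor, was at −0.47, and Timp1 had no UMI. Of the granulopoiesis factors 4 of 6 were tested and none was 2-fold apart (median −0.30). Cebpb was at 0.20, Cebpa at −0.20, Spi1 at −0.40 and Cebpd at −0.53, while Cebpe had 2 BLM and 3 naïve UMIs and Gfi1 5 and 5. Cell cycle genes were near 0, with 18 and 9 UMIs of Mki67, 3 and 2 of Top2a, 2 and 2 of Cdk1, 3 and 1 of Ccnb2, 3 and 2 of Birc5 and 5 and 3 of Ube2c.

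Of 11 mature neutrophil genes 1 was 2-fold or more lower in BLM and none higher (median 0.08). This was Ly6g, at 28.9 CPM in BLM and 103 CPM in naïve cells (−1.84 [−2.46, −1.24]). Il1r2 (the interleukin-1 decoy receptor) was at 0.41, Trem1 at 0.23 and Clec4d at 0.17, and Msrb1 was at −0.47. Of 12 genes of activated or tissue neutrophils 5 were 2-fold or more higher in BLM and none lower (median 0.87). Il1a was at 438 CPM in BLM and 100.4 CPM in naïve cells (2.13 [1.76, 2.51]), the chemokine gene Ccl3 at 801 and 193 CPM (2.05 [1.79, 2.32]), and Tnf at 628 and 183 CPM (1.78 [1.50, 2.06]), beside Cxcl2 and Ccl4. The lowest of that list were Ptgs2 at −0.48, Il1b at 0.12 and Cxcr4 at 0.16. Of the lipolysis partners of G0s2, Hilpda, another inhibitor of the same lipase, was higher in BLM at 584 against 193 CPM (1.59 [1.32, 1.87]), the lipase gene Pnpla2 was at −0.47 [−0.85, −0.08], its coactivator Abhd5 at 0.03 and the hormone-sensitive lipase gene Lipe at −1.30 (11 against 15 UMIs).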

How the data were processed

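CD45+ lung cells were captured on the BD Rhapsody system and amplified with its whole transcriptome kit. For each library the authors deposited a table of UMI counts, made, per the file headers, with the BD Rhapsody WTA Analysis Pipeline 1.8 on GRCm38 with GENCODE vM19 after recursive correction of UMIs. These counts were whole numbers and not normalised. A gene absent from a table was taken as 0 there. The tables held 4714 BLM barcodes (22490782 UMIs) and 4062 naïve barcodes (18019004 UMIs).

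A barcode passed with at least 200 genes and no more than 15% mitochondrial UMIs (4526 and 3925). Scrublet in scanpy 1.11.5 gave doublet scores within each library, of which the highest 3% were left out (133 and 105). Sums of counts were given as CPM with exact Poisson intervals, shares with Clopper-Pearson intervals and log2 ratios with the exact conditional interval (Python 3.11.15, scipy 1.17.1). A count of 0 was given a limit of 3 counts. Genes with 20 or more UMIs over both sides formed the background. Thinned shares, to 500 or 1000 UMIs, are exact means over all draws, with shallower cells left out. The ratio and thinning code was tested on simulated data. With 1 library per group no test was possible.

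The genes, the gate and the lists were chosen with earlier results of these data known. The genes named were the 10 genes, the 3 highest and 3 lowest tested genes of each list, all genes of lists of 6 or fewer, list genes without UMIs, and the 8 genes most correlated with each of 2 profiles among genes with 50 or more UMIs in each library. Alternatives were the gate, the filters, the doublet rule, the scaling, the background minimum and leaving out the highest cells. The value of 1 gene that the rule names is not reported here.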

Additional observations from a re-analysis of the deposited data

Results flagged for a closer look

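Among the BLM barcodes that were left out as doublets or by the quality filter, Ngp, Camp and Ltf together had 207 UMIs, against 1 UMI among the naïve barcodes left out. A single barcode of the highest doublet scores held 202 of them, with 124 of Ngp, 44 of Camp and 34 of Ltf. It had 22366 UMIs and 4848 genes, carried C1q macrophage markers and 7 of the 8 neutrophil markers, and S100a8 and S100a9 made up 0.845% of its UMIs. It also held 25 UMIs of Lcn2, 24 of Mmp8 and 69 of Retnlg, and none of Asprv1. With doublets kept it entered the gate, and the summed log2 ratio of Ngp, Camp and Ltf was 3.58.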

How the results depend on the processing

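No paired analysis was possible because each group was 1 library. The gated share was 22.0%, 18.6% and 13.4% of BLM cells at gates of 0.2%, 1% and 2% and 9.95% and 7.51% of naïve cells at 1% and 2%. It was 19.3% in BLM with 500 or more genes per cell, and 23.3% and 12.7% with at most 10% mitochondrial UMIs. Cells with Ngp, Camp or Ltf UMIs made up 2.36% of BLM and 1.95% of naïve gated cells after thinning to 500 UMIs. The summed log2 ratio of these 3 genes was 1.99 as a mean of per-cell CPM and 0.61 without the 5 highest cells of each library. Of alternatives chosen after seeing the data, leaving out the highest BLM cell gave 0.86 and turned Camp to −1.85 (1 against 2 UMIs), and leaving out the 3 cells of 10 or more UMIs gave 0.21, with 0 of the 10 genes then 2-fold apart. Over the other alternatives the summed ratio lay between 2.96 and 3.58. Median-of-ratios scaling turned Wfdc21 to 0.030 and moved Lcn2 to 0.19 and Mmp9 to 0.13, because it shifts all genes alike. The share of all genes 2-fold or more apart was 21.5% with a minimum of 5 UMIs and 4.95% with 100, against 10.8%. The counts of genes 2-fold apart, inside against outside the gate and over the lists stayed within 1.5 times under all other alternatives. The genes counted as 2-fold apart between libraries were not always the same. Ltf was at 0.70 as a mean of per-cell CPM, and Asprv1 was at 1.15 with median-of-ratios scaling. Without the 5 highest cells of each library Ngp was at 1.60, Asprv1 at 1.08 and Ltf at 0.65. Depth limits Camp and Ngp most, with 2 and 9 naïve UMIs.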

Other observations

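Other list genes were read along the bins of Retnlg share too (named after their values were seen). Pglyrp1, a peptidoglycan recognition protein of specific granules, went from 653 to 1276 CPM in BLM and from 1069 to 1605 CPM in naïve gated cells. Ccl6, already among the genes most correlated with Retnlg, went from 2607 to 5423 CPM and from 2831 to 5126 CPM. Il1a went from 887 to 269 CPM and Ccl3 from 1334 to 492 CPM in BLM, while in naïve cells Il1a was at 112 and 88.6 CPM and Ccl3 at 235 and 177 CPM in the lowest and highest bin. Tnf did not follow, with 659 and 616 CPM in BLM.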
